A study of Mus musculus with 7 samples.

Results

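The circadian clock genes Arntl (also called Bmal1), Clock, Per1, Per2, Per3, Cry1, Cry2, Nr1d1, Nr1d2 and Dbp were taken by symbol from a table of 35976 gene symbols measured by RNA sequencing in mouse adrenal gland. All 10 were found, and all 10 passed the filter, an average of at least 10 normalized counts, that left 16720 for testing. A normalized count is the number of reads assigned to a gene divided by 1 scaling factor per library. The glands came from C57BL/6J mice, an inbred laboratory strain, and the labels name no other allele and no treatment. The 7 libraries were each made from 1 pool of whole glands: E18.5 embryos of undetermined sex, shortly before birth (40 glands), males (16 glands) and females (22 glands) at postnatal day 1 (P1), males and females at 2 weeks (6 glands each), and males and females at 12 weeks (4 glands each). No group had a second pool. The labels give no time of day of collection, so for these rhythmic genes the age of the animals and the hour of collection cannot be told apart.

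The mammalian clock is a feedback loop of transcription. ARNTL and CLOCK bind E-box elements as a pair and activate the Per, Cry, Nr1d and Dbp genes, PER and CRY proteins then repress that pair, and the NR1D proteins repress Arntl through ROR elements, so that Arntl RNA and the RNAs of Nr1d1 and Dbp peak at opposite times of the day in most mouse tissues. In the adrenal gland, a local clock of this kind is known to gate the daily rhythm of glucocorticoid output, and glucocorticoid in turn induces Per1.

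The adrenal label was supported by markers in all libraries: 7 of 7 cortical steroid genes and 5 of 5 chromaffin genes had reads everywhere. Reads assigned to genes ranged from 15184210 (12-week male) to 23551289 (P1 male) per library. The library labelled P1 female held Y-linked transcripts, with a median level of 21.02% relative to P1 male, so the number of clock genes called in each comparison that uses P1 is also given without it. Markers of neighbouring tissues moved with age. The summed level of 6 adipocyte genes was 2881 to 3008 normalized counts at P1, 40785 to 45154 at 2 weeks and 25446 to 30965 at 12 weeks. The sum of 5 skeletal muscle genes was 66323 to 128164 at P1, 131 to 4766 at 2 weeks and 44.7 to 46.4 at 12 weeks, and that of 5 liver genes was 223094 to 338076, 11902 to 31079 and 382 to 402. The sum of 5 kidney genes was 515.5 to 2385 at P1, at most 8.90 at 2 weeks, where Umod had no reads, and at most 2.26 at 12 weeks. The sum of 6 exocrine pancreas genes was 3523 in P1 male and 70.6 in P1 female, and Cela2a had no reads at 2 or 12 weeks. The sum of 4 erythroid genes was 50113 to 52506 at P1, 7938 to 21237 at 2 weeks and 4709 to 11893 at 12 weeks. Some of the gland's own markers moved too. From P1 to 12 weeks 2 of 7 cortical genes rose and 0 fell, and 1 of 5 chromaffin genes rose and 1 fell. Of all genes tested, 41.2% were called, at an adjusted p of at most 0.05. Star, which brings cholesterol to steroid synthesis, rose 5.39-fold and Pnmt, the adrenaline-forming enzyme, fell 3.07-fold (log2 SE 0.371 and 0.275; adjusted p 0.00326 and 0.00486 in limma). The chromaffin gene Chgb rose 2.20-fold (log2 SE 0.342; adjusted p 0.0375 in limma). The part of these tissues and cells in the clock gene values was not tested. In pooled whole glands, fewer cells of a type and less RNA per cell cannot be told apart.

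Promoter sequences are shown for the members whose window from 250 bases before to 50 bases after an annotated start holds a clock element, since these are the elements through which the loop described above acts. The sequences are from RefSeq on GRCm38.p6, the build also called mm10, which the submitters' processing notes name. 9 of the 10 genes matched the promoter table, with 13 windows, and Per2 was not searched. Both strands were searched for the E-box CACGTG, its variant CACGTT, the D-box (TTATGTAA or TTACGTAA, bound by DBP and its relatives), the core of the ROR element (TAGGTCA or TGGGTCA, bound by ROR and NR1D proteins) and the cyclic AMP response element TGACGTCA. No pair of these overlaps in the windows shown. Matches are in capitals, written 5′ to 3′ on the strand of the gene.
Arntl (chr7:113207261-113207560, plus strand): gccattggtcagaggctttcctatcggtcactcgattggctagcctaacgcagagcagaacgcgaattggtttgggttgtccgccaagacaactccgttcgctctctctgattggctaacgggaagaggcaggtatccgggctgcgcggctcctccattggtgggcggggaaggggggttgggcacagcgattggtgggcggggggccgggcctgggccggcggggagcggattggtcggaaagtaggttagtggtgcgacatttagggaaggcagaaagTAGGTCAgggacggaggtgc
Per1 (chr11:69098699-69098998, plus strand): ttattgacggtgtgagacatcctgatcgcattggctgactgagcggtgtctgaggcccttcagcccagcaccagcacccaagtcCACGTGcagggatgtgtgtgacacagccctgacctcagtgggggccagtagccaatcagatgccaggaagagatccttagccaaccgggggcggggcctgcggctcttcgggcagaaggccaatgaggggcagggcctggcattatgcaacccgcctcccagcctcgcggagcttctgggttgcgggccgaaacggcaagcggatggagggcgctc
Cry1 (chr10:85185005-85185304, minus strand): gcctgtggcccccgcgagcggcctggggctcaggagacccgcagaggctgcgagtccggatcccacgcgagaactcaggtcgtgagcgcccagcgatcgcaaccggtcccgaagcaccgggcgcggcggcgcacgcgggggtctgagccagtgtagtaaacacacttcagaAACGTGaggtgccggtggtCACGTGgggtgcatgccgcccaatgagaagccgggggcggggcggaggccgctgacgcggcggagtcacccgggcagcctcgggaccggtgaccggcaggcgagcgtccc
Nr1d1 (chr11:98775328-98775627, minus strand): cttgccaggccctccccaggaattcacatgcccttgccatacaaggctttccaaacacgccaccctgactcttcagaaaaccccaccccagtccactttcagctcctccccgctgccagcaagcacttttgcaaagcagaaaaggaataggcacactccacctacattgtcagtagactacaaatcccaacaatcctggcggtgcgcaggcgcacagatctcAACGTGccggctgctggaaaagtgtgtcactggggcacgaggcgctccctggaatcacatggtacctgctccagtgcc
Cry2 (chr2:92434020-92434319, minus strand): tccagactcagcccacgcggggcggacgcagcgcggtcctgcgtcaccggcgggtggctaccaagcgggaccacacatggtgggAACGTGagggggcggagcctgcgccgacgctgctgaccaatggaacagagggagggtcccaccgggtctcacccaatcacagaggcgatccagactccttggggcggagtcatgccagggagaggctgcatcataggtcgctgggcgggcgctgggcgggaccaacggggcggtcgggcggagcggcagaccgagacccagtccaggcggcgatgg
Per3 (chr4:151044616-151044915, minus strand): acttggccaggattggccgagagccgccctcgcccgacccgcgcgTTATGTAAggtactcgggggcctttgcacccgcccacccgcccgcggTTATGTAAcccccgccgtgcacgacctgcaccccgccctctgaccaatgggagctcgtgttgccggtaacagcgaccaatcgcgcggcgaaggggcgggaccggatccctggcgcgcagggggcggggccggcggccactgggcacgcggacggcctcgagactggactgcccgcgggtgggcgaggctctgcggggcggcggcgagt
The core ROR element in Arntl began 30 bases after the start, and 6.45% of 32851 promoter windows hold that core. The E-box began 166 bases before the start in Per1 and 60 bases before it in Cry1, and 7.15% of windows hold one. The E-box variant was found in Cry1, Nr1d1 and Cry2, and in 4.68% of all windows. Per3 had 2 D-boxes, 205 and 158 bases before its start, and 1.06% of all windows hold at least 1. The cyclic AMP response element was found in 0 of the 9 genes' windows and in 1.79% of all windows. A match is only a match of letters, and these windows leave out distant elements.

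Arntl (chr7:113207465-113314126 in the GENCODE M21 annotation of GRCm38), the activator without which the loop does not run, stood at 1429 normalized counts at E18.5. In males and females it then stood at 987.6 and 981.3 (P1), 846.0 and 899.0 (2 weeks) and 137.0 and 211.6 (12 weeks). Both 12-week libraries were far below every earlier library, and the P1 and 2-week libraries lay close together. From 2 weeks to 12 weeks it fell by 2.35 ± 0.205 on the log2 scale (SE; 5.10-fold lower; adjusted p 0.00162 in limma with Benjamini-Hochberg adjustment, 3 male and 3 female libraries in the fit), in both sexes. The 2 lowest values rest on 98 and 187 reads. Between P1 and 2 weeks its difference was -0.17 ± 0.205 (adjusted p 0.600 in limma), although both P1 libraries lay above both 2-week libraries.

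Clock (chr5:76209868-76304792), which encodes the partner of ARNTL, took another course. It had 2353 normalized counts at E18.5. Its male and female levels were 2051 and 2404 at P1, 4490 and 3997 at 2 weeks, and 3776 and 3775 at 12 weeks. The 2-week and 12-week libraries were all above the 3 earlier ones. It rose by 0.93 ± 0.156 log2 (SE; 1.91-fold; adjusted p 0.0123 in limma) from P1 to 2 weeks and then differed by -0.17 ± 0.156 (adjusted p 0.508). Npas2, a relative of Clock that can replace it as the partner of ARNTL, was outside the 10 genes and followed the direction of Arntl instead. It had 213.4 normalized counts at E18.5, 155.5 and 164.5 in the male and female P1 libraries, 49.8 and 75.9 at 2 weeks and 8.39 and 21.5 at 12 weeks, with 6 reads in 12-week male. From 2 weeks to 12 weeks Npas2 fell 4.30-fold (log2 SE 0.378; adjusted p 0.0157 in limma).

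**Figure D1:**
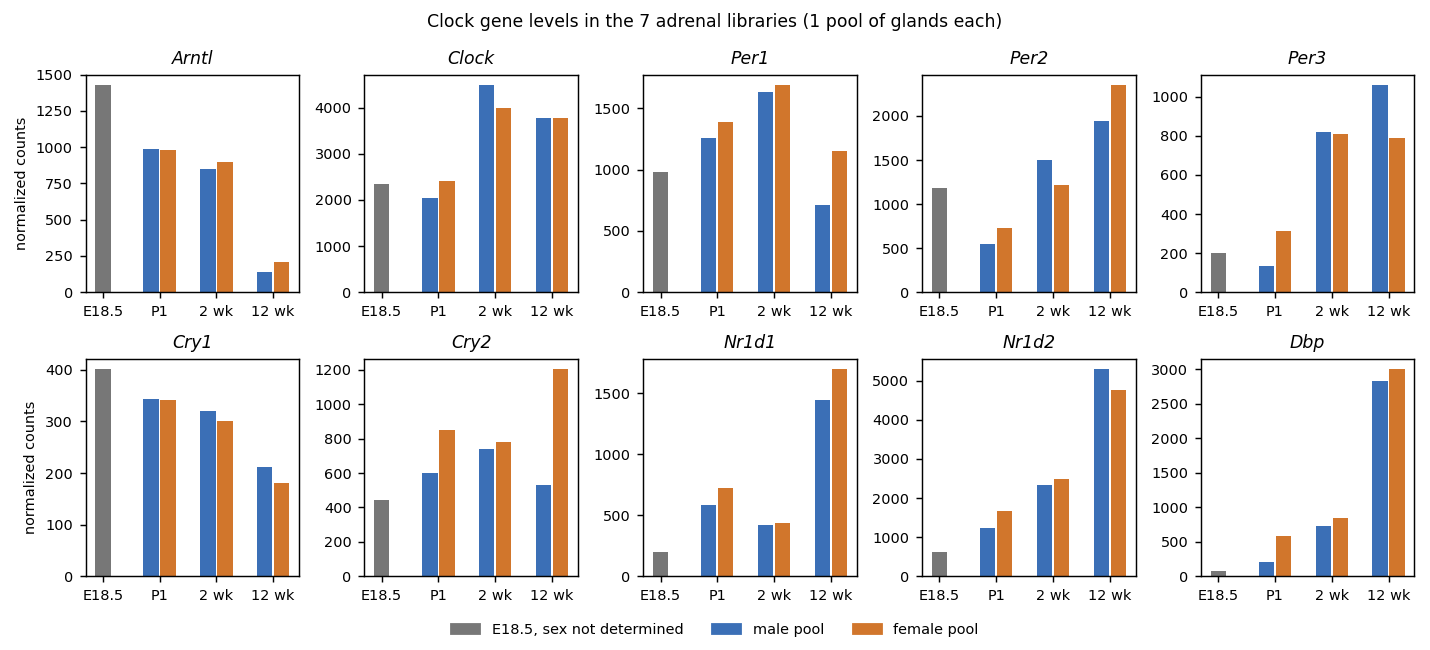
Normalized counts (vertical axes, from 0, a separate scale per gene) of the 10 clock genes in the 7 libraries, ordered by age (horizontal axes); each bar is 1 library made from 1 pool of glands, so there are no error bars. Arntl drops to 137.0 and 211.6 at 12 weeks, while Dbp climbs from 78.1 at E18.5 to 2833 and 3002 at 12 weeks.

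The nuclear receptors that repress Arntl rose where Arntl fell. Nr1d1 (REV-ERB alpha, chr11:98767932-98775333) stood at 196.6 normalized counts at E18.5. In males and females it then stood at 579.3 and 726.3 (P1), 416.3 and 436.7 (2 weeks) and 1441 and 1697 (12 weeks). It was lowest before birth, highest at 12 weeks, and lower at 2 weeks than at P1. It fell by 0.60 ± 0.155 log2 from P1 to 2 weeks (SE; adjusted p 0.0444 in limma) and rose by 1.87 ± 0.155 from 2 weeks to 12 weeks (3.66-fold; adjusted p 0.00142). The fall to 2 weeks passed in 9 of 16 alternative fits. It missed the threshold with libraries scaled to equal totals (adjusted p 0.0558 in limma) or with no filter on low genes (0.0985). The call was also lost in each fit that left out 1 P1 or 2-week library, where the difference was -0.71 to -0.50 log2.

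Nr1d2 (REV-ERB beta, chr14:18204054-18239127) had 628.5 normalized counts at E18.5. Its male and female levels were 1227 and 1676 at P1, 2342 and 2480 at 2 weeks, and 5300 and 4752 at 12 weeks. Its level climbed at each age with no overlap between ages. It rose by 0.75 ± 0.180 log2 from P1 to 2 weeks (SE; adjusted p 0.0366 in limma) and by 1.06 ± 0.180 from 2 weeks to 12 weeks (adjusted p 0.0131). From P1 to 2 weeks Nr1d1 and Nr1d2 thus moved in opposite directions, with calls that held in 9 and 10 of 16 alternative fits. The difference between the 2 genes was not tested.

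Dbp (chr7:45705088-45710203), a PAR bZIP factor and a direct output of ARNTL and CLOCK, had the widest range of the 10, 38.4-fold from its lowest to its highest library. It stood at 78.1 normalized counts at E18.5 (93 reads). In males and females it then stood at 210.3 and 580.6 (P1), 733.0 and 839.0 (2 weeks) and 2833 and 3002 (12 weeks). The order of the levels was the order of the ages, and the P1 pair lay far apart, at 2.76-fold. From 2 weeks to 12 weeks it rose by 1.89 ± 0.331 log2 (SE; 3.71-fold; adjusted p 0.0143 in limma), and from P1 to 12 weeks by 3.06 ± 0.331 (8.32-fold; adjusted p 0.000937). The size of the latter rests on the P1 library used, with a rise of 2.40 without P1 male and 3.72 without P1 female. From P1 to 2 weeks the difference was 1.16 ± 0.331 (adjusted p 0.0599). The ratio of Dbp to Arntl within a library, in normalized counts, was 0.0547 at E18.5, 0.213 and 0.592 in the male and female P1 libraries, 0.866 and 0.933 at 2 weeks, and 20.7 and 14.2 at 12 weeks.

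Among the period genes, whose proteins form the repressor complex with CRY, Per2 and Per3 rose from P1 to 2 weeks, while Per1 passed the test only in its fall from 2 weeks to 12 weeks. Per2 (chr1:91415982-91459324) had 1180 normalized counts at E18.5. Its male and female levels were 549.9 and 734.0 at P1, 1494 and 1216 at 2 weeks, and 1945 and 2352 at 12 weeks. E18.5 stood above both P1 libraries and near the 2-week female. Per2 rose by 1.08 ± 0.202 log2 from P1 to 2 weeks (SE; 2.12-fold; adjusted p 0.0171 in limma), and differed by 0.67 ± 0.202 from 2 weeks to 12 weeks (adjusted p 0.0731). Per3 (chr4:151003652-151044665) stood at 201.6 normalized counts at E18.5. In males and females it then stood at 136.7 and 315.7 (P1), 820.2 and 811.6 (2 weeks) and 1061 and 787.4 (12 weeks). The 4 later libraries were all above the 3 earlier ones, and the 2 ages after P1 overlapped. It rose by 1.97 ± 0.366 log2 from P1 to 2 weeks (SE; 3.91-fold; adjusted p 0.0169 in limma), and differed by 0.16 ± 0.366 after that. The rise was 1.26 without P1 male and 2.68 without P1 female, and it missed the threshold in both fits (adjusted p 0.0991 and 0.0519 in limma).

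Per1 (chr11:69095217-69109960), the period gene that glucocorticoid and cyclic AMP also induce, had 982.2 normalized counts at E18.5. Its male and female levels were 1261 and 1393 at P1, 1634 and 1692 at 2 weeks, and 710.3 and 1152 at 12 weeks. Both 12-week libraries were below both P1 and both 2-week libraries. It fell by 0.88 ± 0.194 log2 from 2 weeks to 12 weeks (SE; 1.84-fold; adjusted p 0.0300 in limma). This call was lost in 7 of 16 alternative fits, among them those without P1 male (adjusted p 0.0829), P1 female (0.0827), 2-week male (0.292), 2-week female (0.125) or 12-week male (0.0806). From P1 to 12 weeks its difference was -0.55 ± 0.194 (adjusted p 0.0612), and it passed with libraries scaled to equal totals (0.0363) or without the 12-week female library (0.00627). Other genes that respond to these signals were read beside it. Of 8 immediate early genes, 4 rose and 0 fell from P1 to 2 weeks, and 1 rose and 3 fell from 2 weeks to 12 weeks, where 16.4% and 15.3% of all genes tested were called. Fos had 491.0 and 432.3 normalized counts in the male and female 2-week libraries and 99.3 and 63.4 at 12 weeks, a fall of 2.52 ± 0.279 log2 (SE; adjusted p 0.00332 in limma), and Egr1 differed by -1.67 ± 0.522 (adjusted p 0.0785). Of 8 glucocorticoid-responsive genes, 2 rose from P1 to 2 weeks, Tsc22d3 by 0.72 ± 0.160 log2 and Klf9 by 0.64 ± 0.148 (SE; adjusted p 0.0283 and 0.0320 in limma), and 0 fell. In the next step, to 12 weeks, 0 of these 8 passed in limma, beside 15.3% of all genes. There Tsc22d3 differed by -0.24 ± 0.160 log2 (SE; adjusted p 0.344) and Fkbp5 by 0.18 ± 0.146 (adjusted p 0.443). The part of either signal in the Per1 values was not tested.

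The cryptochromes, the stronger repressors of the loop, differed from each other. Cry1 (chr10:85131700-85185064) stood at 401.6 normalized counts at E18.5. In males and females it then stood at 342.9 and 342.2 (P1), 319.4 and 300.8 (2 weeks) and 211.1 and 179.9 (12 weeks). It was lower at each later age, in small steps before 2 weeks. From P1 to 12 weeks it fell by 0.81 ± 0.188 log2 (SE; 1.75-fold; adjusted p 0.0153 in limma). Cry2 (chr2:92403646-92434043) had 443.6 normalized counts at E18.5. Its male and female levels were 597.3 and 852.1 at P1, 740.1 and 781.7 at 2 weeks, and 528.5 and 1205 at 12 weeks. The 12-week pair spanned nearly the whole range of the gene. Its differences were 0.09 ± 0.263 log2 in the step to 2 weeks, 0.07 ± 0.263 in the next step and 0.16 ± 0.263 over both (SE; adjusted p 0.847, 0.884 and 0.649 in limma). From 2 weeks to 12 weeks Cry2 was 1.40-fold lower in the male libraries and 1.54-fold higher in the female ones, and that difference between the sexes was not tested.

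**Figure D2:**
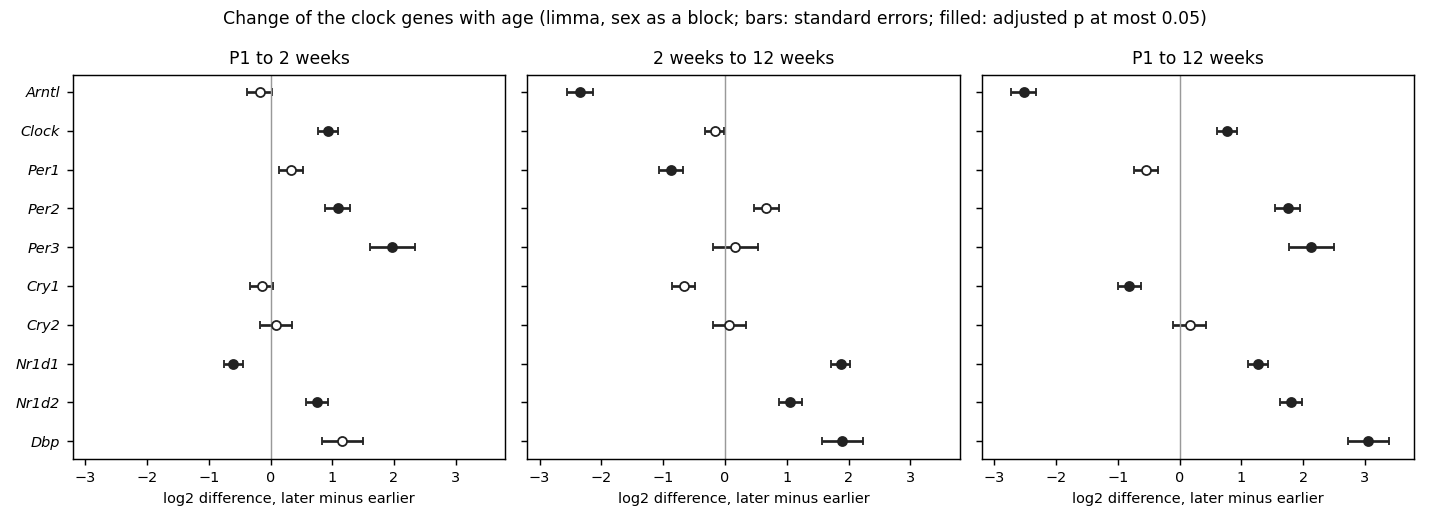
Log2 difference between ages (horizontal axes, later minus earlier) of the 10 clock genes in 3 comparisons of the postnatal libraries, fitted with limma with sex as a block; points are estimates, bars are standard errors, and filled points have an adjusted p of at most 0.05. From 2 weeks to 12 weeks Arntl (-2.35) stands at the opposite end from Nr1d1 (1.87) and Dbp (1.89).

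Counted over the 10 genes, 4 rose (Clock, Per2, Per3, Nr1d2) and 1 fell (Nr1d1) from P1 to 2 weeks at an adjusted p of 0.05 in limma. Over all 16720 genes the same test called 16.4%, with 5.89% higher and 10.5% lower. The median log2 difference was 0.54 over the 10 genes and 0.00261 over all genes. Leaving out 1 library at these ages removed most calls: none of the 10 passed in limma without P1 male, P1 female or 2-week male, where 6, 6 and 5 had an unadjusted p under 0.05, and 1 passed without 2-week female. Of all 16720 genes 2, 28, 201 and 750 passed in those fits, so calls were lost across all genes. edgeR and DESeq2 on the recovered reads of all 6 libraries called 5 and 6, beside 2795 and 2988 of all genes.

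From 2 weeks to 12 weeks 3 rose (Nr1d1, Nr1d2, Dbp) and 2 fell (Arntl, Per1), against 15.3% of all genes called, 5.4% higher and 9.89% lower. The median was 0.12 over the 10 genes and -0.03 over all genes. Fits that left out 1 P1 or 2-week library called fewer of all genes, so 15.3% is not their background. Without 2-week male or 2-week female 2 of the 10 passed, Arntl and Nr1d1, and without either P1 library 4, Per1 being lost. Of all genes, 532 and 421 passed in the first pair of fits. Arntl and Nr1d1 each passed in 15 of 16 alternative fits, missing with no filter on low genes (adjusted p 0.0881 and 0.0727).

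From P1 to 12 weeks, the longest interval, 6 rose (Clock, Per2, Per3, Nr1d1, Nr1d2, Dbp) and 2 fell (Arntl, Cry1). That is beside 41.2% of all genes called in the fit of all 6 libraries, 17.6% higher and 23.5% lower. Fits that left out 1 P1 library called fewer of all genes, so 41.2% is not their background. The median was 1.02 over the 10 genes and -0.03 over all genes. Without the P1 female library 7 of the 10 passed, and 6 without P1 male. Clock missed without P1 male (adjusted p 0.0724 in limma), and Cry1 missed without P1 male (0.0745), P1 female (0.107) or 12-week female (0.0537).

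Levels of different genes were compared per kilobase of exon, from the GENCODE M21 basic set, since the annotation the authors counted on is not given in the sources used here. At E18.5 Arntl was the highest of the 10 at 462.5 normalized counts per kilobase, followed by Clock at 237.0, while Dbp (42.5) and Per3 (33.6) were lowest. At 12 weeks Dbp was highest, at 1542 in the male and 1634 in the female library, followed by Nr1d2 at 1137 and 1019. Arntl stood lowest in the 12-week male at 44.3, and in the 12-week female Cry1 (59.4) and Arntl (68.5) were the lowest.

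E18.5 was set against the P1 libraries without a test, since it is 1 library. The 2 genes at least 2-fold higher in both P1 libraries were Nr1d1 and Dbp, against 2.91% of all genes, and none of the 10 was 2-fold lower in both, against 2.24%. Dbp was 2.69-fold higher in P1 male (exact binomial 95% interval 2.12 to 3.45, counting error only) and 7.43-fold higher in P1 female (5.95 to 9.37). Nr1d1 was 2.95-fold and 3.69-fold higher, and Nr1d2 1.95-fold and 2.67-fold. Arntl was at 0.691 of its E18.5 level in P1 male and 0.687 in P1 female, a pair that agreed within counting error. Per2 was at 0.466 and 0.622. Per3 was at 0.678 in P1 male and 1.57 in P1 female, so its direction differed between the P1 libraries. All these ratios share the 1 E18.5 library. Its marker sums also differed from those at P1. Muscle (33867 normalized counts), kidney (196.6) and exocrine pancreas (19.3) sums were below both P1 libraries, and the erythroid sum (89918) was above both. Adipocyte (2980) and liver (267601) sums lay between the P1 libraries. The cortical sum was 537915 at E18.5, 377136 in P1 male and 247747 in P1 female. The chromaffin sum was 38937, then 45497 and 90363. The part of this in the ratios was not tested.

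The sexes were compared over the 3 postnatal ages with age as a block. In limma none of the 10 reached an adjusted p of 0.05, where 0.00598% of all genes did, and edgeR and DESeq2 called 0 of the 10 as well. Cry2 alone had an unadjusted p under 0.05, with a male-minus-female difference of -0.59 ± 0.215 log2 (SE; adjusted p 0.999 in limma; lower in males at 3 of 3 ages). Its male library was at 0.701 of the female level at P1, 0.947 at 2 weeks (within counting error) and 0.439 at 12 weeks. Per1, Nr1d1 and Dbp were also lower in males at 3 of 3 ages. For Dbp the difference was -0.58 ± 0.270 log2 (SE; adjusted p 0.999 in limma), and -0.14 without the P1 female library, where none of the 10 passed either.

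Within single ages the pairs of libraries differed by unequal amounts. The share of all genes beyond counting error was not counted, so the counts beyond it given here have no background to be read against. At P1 8 of the 10 genes were lower in the male library beyond counting error and 0 were higher, while Arntl and Cry1 lay within counting error. Dbp (0.362 of the P1 female level) and Per3 (0.433) were at least 2-fold lower, as were 3.03% of all genes, while 3.75% were 2-fold higher. At 2 weeks 4 of the 10 differed beyond counting error, 2 in each direction, and none by 2-fold, where 0.568% of all genes were 2-fold higher in males and 3.67% lower. At 12 weeks 5 were lower in the male library (Arntl, Per1, Per2, Cry2, Nr1d1) and 2 higher (Per3, Nr1d2). Cry2 was the 1 gene of the 10 at least 2-fold apart at 12 weeks, lower in males, as were 3.98% of all genes, while 4.84% were 2-fold higher. The P1 values compare a male pool with the library that held Y-linked transcripts. Those pools also differed in marker sums. In P1 male and P1 female the cortical sum was 377136 and 247747 normalized counts. The chromaffin sum was 45497 and 90363, and the muscle sum 66323 and 128164. Liver, kidney and exocrine pancreas sums were higher in P1 male, and the adipocyte and erythroid sums lay close together. The part of this in the P1 ratios was not tested.

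**Figure D3:**
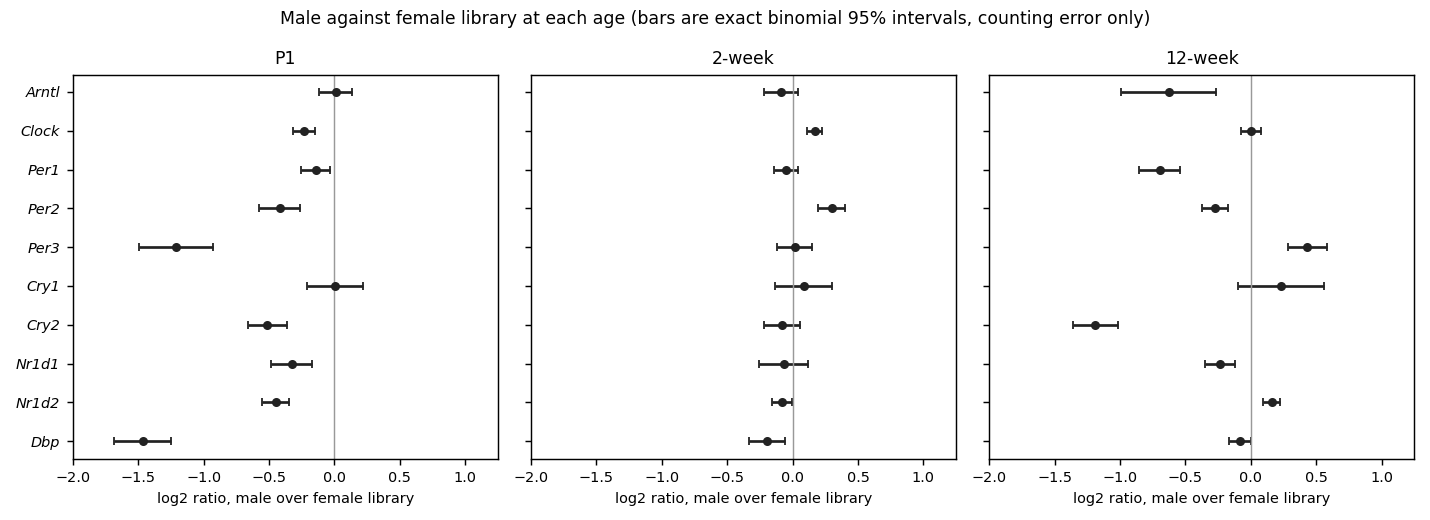
Log2 ratio of the male to the female library (horizontal axes) for the 10 clock genes at P1, 2 weeks and 12 weeks; points are ratios of normalized counts from 1 library each, and bars are exact binomial 95% intervals that cover counting error only. At P1 Dbp (-1.47) and Per3 (-1.21) lie farthest from 0, at 2 weeks all 10 lie near 0, and at 12 weeks Cry2 (-1.19) lies farthest.

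The wider clock pathway was read from a list of 22 further genes, all measured and all past the filter. In the step to 2 weeks 5 rose and 0 fell. In the step from 2 weeks to 12 weeks 2 rose and 3 fell, and over both steps 7 rose and 2 fell. Of all genes tested, 16.4%, 15.3% and 41.2% were called in these comparisons, so the 9 of 22 over both steps are near the share of all genes. Tef, a PAR bZIP factor like DBP, rose by 0.85 ± 0.147 log2 from P1 to 2 weeks and by 0.65 ± 0.147 from 2 weeks to 12 weeks (SE; adjusted p 0.0138 and 0.0324 in limma). It went from 1186 and 1421 normalized counts at P1 to 3733 and 3606 at 12 weeks. Bhlhe41 (DEC2), a repressor that competes at E-boxes, had 22.7 normalized counts at E18.5, 37.6 and 83.9 at P1, 88.1 and 127.9 at 2 weeks and 718.6 and 439.0 at 12 weeks, and rose by 2.39 ± 0.427 log2 in the last interval (SE; adjusted p 0.0153 in limma). Ciart, another repressor of the ARNTL and CLOCK pair, rose by 2.77 ± 0.667 from P1 to 12 weeks (adjusted p 0.0176 in limma). It rests on few reads. In the male and female libraries it had 4.09 and 7.73 normalized counts at P1 (5 and 7 reads) and 64.3 and 30.5 at 12 weeks (46 and 27 reads).

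The 6 kinases and ubiquitin ligases that set the stability of PER and CRY proteins, among them Csnk1d, Csnk1e and Btrc, had 0 calls in limma in each of the 3 age comparisons, where those same shares of all genes were called. Their median log2 differences were -0.05, -0.04 and -0.06. Timeless, whose mammalian product is best known for a role in DNA replication, fell by 1.41 ± 0.254 log2 from 2 weeks to 12 weeks (SE; adjusted p 0.0158 in limma). Noct, a rhythmic phosphatase gene, rose by 1.20 ± 0.198 to 2 weeks and fell by 0.98 ± 0.198 after it (adjusted p 0.0120 and 0.0230 in limma).

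**Figure D4:**
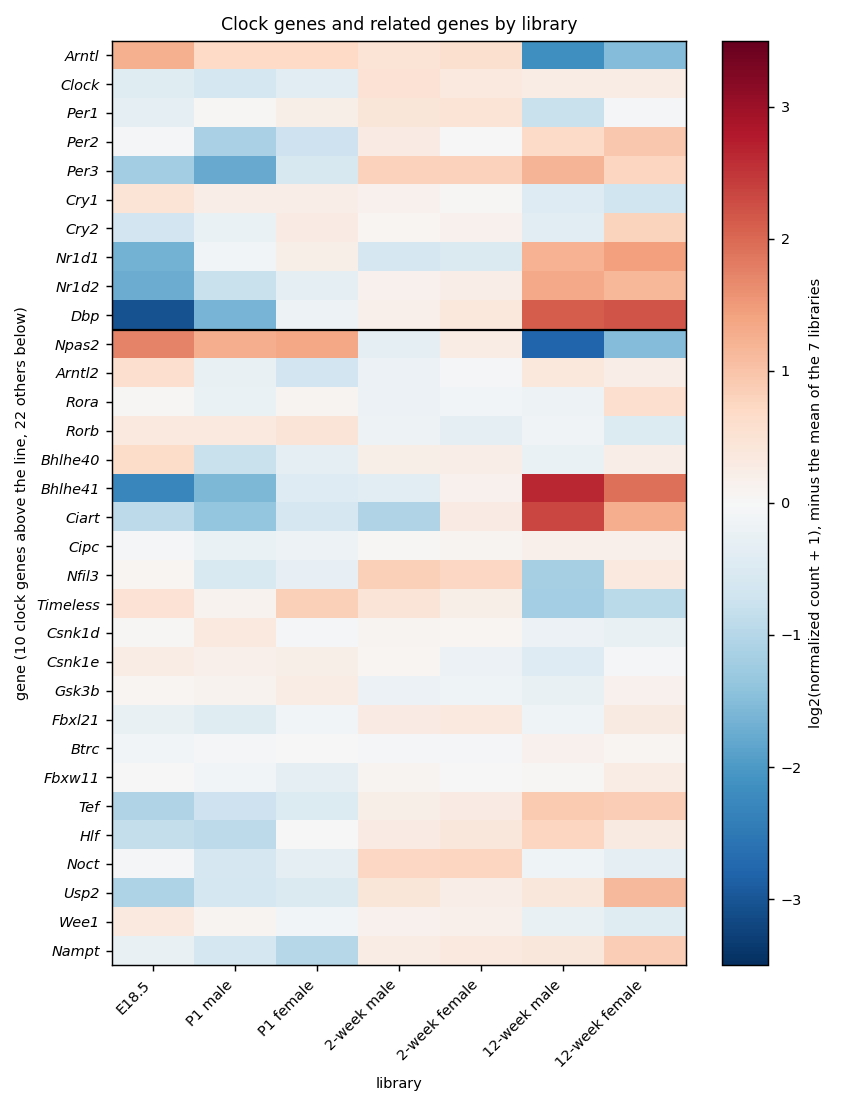
Colour gives log2(normalized count + 1) minus the mean of the 7 libraries for each gene (rows; the 10 clock genes above the line, 22 related genes below) in each library (columns, by age). Arntl and Npas2 turn blue at 12 weeks, where Nr1d1, Nr1d2, Dbp, Bhlhe41, Ciart and Tef turn red, and the kinase and ligase rows stay pale.

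Genes with the most similar course over the 7 libraries were found by Pearson's r of log2(normalized count + 1) among 12254 other genes that averaged at least 100 normalized counts. These r describe 7 pools that share age and depth differences. For Dbp the highest was Nr1d2 (r = 0.993), followed by 1110032A03Rik, Cx3cl1, Naaladl2 and Fxyd1 (0.991 to 0.989). Bhlhe41 ranked 45 and Tef 56 of 12254 from the top, while Per1 ranked 6991. The lowest for Dbp was Slc16a3 (r = -0.990), a lactate transporter gene that went from 1070 normalized counts at E18.5 to 20.97 and 19.2 at 12 weeks, followed by Slc20a1, Nans, Arhgef37 and Pex26.

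For Arntl the 5 highest were Cks2 (r = 0.998), which encodes a subunit of cyclin-dependent kinases, Gen1 (0.997), a DNA junction nuclease, Ncapg (0.994), a condensin subunit, Ttk (0.994), a spindle checkpoint kinase, and Kif14 (0.993), a mitotic kinesin. Cks2 had 398.3 normalized counts at E18.5, 315.9 and 255.0 at P1, 226.8 and 244.4 at 2 weeks and 30.8 and 49.8 at 12 weeks. Of the other clock genes, Cry1 came nearest to Arntl in rank among the 10, at 383 (r = 0.944). Timeless, from the wider list, ranked 349 (r = 0.948). The lowest for Arntl were Gm4759 (r = -0.998), Gbp4, Sbsn, Ulk2 and Gsn. Dbp ranked 840 from the bottom (r = -0.864), Nr1d1 684 and Nr1d2 652. Btrc and Bhlhe41, from the wider list, ranked lower still, at 88 and 173 from the bottom (r = -0.960 and -0.945).

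Overlapping genes bear on some of these levels, because the use of strand in counting is not given in the sources used here. Exons of Nr1d1 share 263 bases with Thra, the thyroid hormone receptor alpha gene on the opposite strand, and exons of Dbp share 539 bases with Sphk2, a sphingosine kinase gene also on the opposite strand. Reads from such a stretch cannot be told apart without strand. Thra had 1939 and 1877 normalized counts in the male and female 2-week libraries and 957.7 and 1225 at 12 weeks, and Sphk2 had 534.6 and 529.3, then 281.0 and 337.2. Both were thus lower in the 12-week libraries, where Nr1d1 and Dbp were higher. From E18.5 to P1 they moved the same way as Nr1d1 and Dbp. Thra had 1406 normalized counts at E18.5 and 1769 and 2569 in P1 male and P1 female, and Sphk2 had 389.9, then 451.7 and 506.6. Nr1d1 and Dbp were also higher at P1 than at E18.5, and higher in P1 female than in P1 male. From P1 to 2 weeks Nr1d1 was lower in both sexes, while Thra was higher in the male libraries and lower in the female ones. Sphk2 and Dbp were both higher at 2 weeks than at P1, in both sexes. The part of shared reads in the Nr1d1 and Dbp values was not tested. Arntl shares 33 exon bases with the antisense gene Gm45355, which was not analysed here, and Cry2 shares 149 with D930015M05Rik, which had at most 4.19 normalized counts. Per3 lies inside the span of Camta1 on the same strand and shares 0 exon bases with it.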

How the data were processed

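RNA from 7 pools of mouse adrenal glands was sequenced. The authors deposited 1 table of normalized counts per gene, a signal unit rather than raw reads. The submitters' processing notes name CASAVA 1.8.2, HISAT2 2.1.0, HTSeq 0.9.1, DESeq2 2.11.40.6 and mm10, with no roles; annotation and strand use are not given in the sources used here. Every deposited value was within 0.000237 reads of a whole multiple of 1 step per library (100% of values at a tolerance of 0.01), so read counts were recovered. Recomputed median-of-ratios size factors matched the steps.

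Values were taken as log2(normalized count + 1), so changes of low genes are understated, and fitted with limma 3.58.1 in R 4.3.3 (age plus sex, eBayes with trend, two-sided, 2 residual degrees of freedom) on the 6 postnatal libraries over 16720 genes with a mean of at least 10, with Benjamini-Hochberg adjustment at 0.05. The spread comes from pools of both sexes, since no group had replicates, so p-values measure only how these pools vary. A change with age that differs between the sexes is counted as spread in this fit and cannot be told apart from variation between pools. E18.5 and single-age sex ratios have exact binomial 95% intervals on recovered reads, which cover counting error only, as the labels name no molecular identifiers and PCR copies may be counted. Fits were tested on simulated data. Alternatives were other pseudocounts, filters, scalings, edgeR 4.0.16 and DESeq2 1.42.0 on recovered reads, and leaving out each library. The 10 genes and all lists were chosen with earlier results of these data known. All 10 are named, with called genes of the 22-gene pathway list (some genes of that pathway are not reported here), the 5 genes highest and 5 lowest in r with Arntl and Dbp, and 4 signal-responsive genes beside Per1. Genes named for overlap with a member were found from the annotation. Klf9, Star, Pnmt and Chgb were named after their values were seen.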

Additional observations from a re-analysis of the deposited data

How the results depend on the processing

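Of 640 alternative values for the 10 genes in the 4 limma comparisons, 579 kept their direction where called and their side of the threshold, 52 lost and 9 gained a call, and 0 called values reversed. Many of the 579 were not called in the main fit and stayed so, as were all those for the sexes. Calls of the main fit held in 9 to 11 of 16 alternatives per gene from P1 to 2 weeks. They held in 9 to 15 from 2 weeks to 12 weeks and in 13 to 16 from P1 to 12 weeks. With no filter on low genes the members past the threshold were 0 from P1 to 2 weeks (5 at an unadjusted p under 0.05 in limma) and 0 from 2 weeks to 12 weeks (7 unadjusted), where 0 of all 27254 genes passed too. Without a trend in eBayes they were 0 (6 unadjusted) and 2, where 1672 and 1661 of all 16720 genes passed. edgeR called 5 and 5, beside 2795 and 2396 of all genes. DESeq2 called 6 and 6, beside 2988 and 2917. Leaving out each replicate library in turn gave 0 to 6 from P1 to 2 weeks, 2 to 5 from 2 weeks to 12 weeks, 6 to 8 from P1 to 12 weeks and 0 for the sexes; such fits have 1 residual degree of freedom and assume that the lone library of an age varies like the others. From P1 to 12 weeks the other alternatives gave 7 to 9, where 4691 to 7501 of all genes passed. The cause of the lost calls was not tested. Equal totals moved the all-gene median of the step from 2 weeks to 12 weeks from -0.03 to -0.20 log2. No paired analysis was possible because each group was 1 pool. Of 100 untested ratios recomputed, 98 stayed within counting error. Depth limits Arntl most at 12 weeks, where its male library held 98 reads. The collection hour, the neighbouring tissues and the make-up of single pools limit every comparison between ages.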
